A study of Rattus norvegicus with 12 samples.

Results

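The nitric oxide pathway that runs through cyclic GMP was followed in rat liver by 9 genes: Nos2, Nos3, Gucy1a1, Gucy1b1, Prkg1, Prkg2, Pde3b, Pde5a and Slc7a1. A probe set with exactly 1 gene symbol was sought for each of these listed genes, and all 9 had 1 such probe set, out of 13215 genes named that way. Liver RNA came from 12 Sprague Dawley rats, 1 array per rat and 4 rats per diet, after 7 days on the diet. Rats of the NO-naproxen group ate 550 mg NO-naproxen per kg of diet, those of the naproxen group 400 mg naproxen per kg of diet, and those of the control group the diet without drug. The labels used here give neither age nor sex of the rats. Naproxen blocks both cyclooxygenases and is used against pain and inflammation, and NO-naproxen is naproxen joined to a group that can release nitric oxide. The 2 doses differ by mass, so a comparison of NO-naproxen with naproxen is one of these 2 diets.

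Nitric oxide is made from arginine by nitric oxide synthases. In the classical route it binds the haem of soluble guanylyl cyclase, a dimer of an alpha and a beta subunit, which then makes cyclic GMP. Cyclic GMP activates protein kinases that relax smooth muscle and restrain platelets, and phosphodiesterases degrade it. In the liver the pathway is known for setting the tone of the sinusoids, where endothelial cells make nitric oxide and stellate cells respond to it, and for the output of nitric oxide by hepatocytes and macrophages during inflammation.

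Each array gave 19418 probe sets with median intensities between 89.8 and 118. Precision is limited by the number of arrays, with a standard error of 0.21 for the median probe set's log2 fold change. The spread of the log2 signals within an array, taken as the interquartile range, averaged 2.36 ± 0.23 in NO-naproxen arrays, 2.34 ± 0.16 in naproxen arrays and 2.10 ± 0.19 in control arrays (SD, n = 4 each). Control replicates 3 and 4 had the narrowest spread of the 12 arrays. Albumin (Alb), a hepatocyte product, measured between 11799 and 14795 in NO-naproxen livers, 12250 and 13774 in naproxen livers and 12010 and 13106 in control livers. Fold changes are differences of log2(intensity + 16) from 1 limma fit over all arrays, given as log2 fold change ± SE. The study's own criterion was an unadjusted p under 0.05 with a change of at least 1.5-fold.

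In NO-naproxen livers none of the 9 genes differed from naproxen livers beyond the spread between rats. For 8 of the 9 the measured difference was positive, with a median log2 fold change of 0.31 against 0.06 over all probe sets, and Prkg2 alone was below 0. Against control livers, Gucy1a1 was higher and Prkg2 lower in NO-naproxen livers by the study's criterion, and neither passed after Benjamini-Hochberg adjustment in limma (adjusted p = 0.468 for both). The difference between naproxen and control livers passed the criterion for 0 of the 9. The values of every gene overlapped between the diets in all 3 comparisons.

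**Figure D1:**
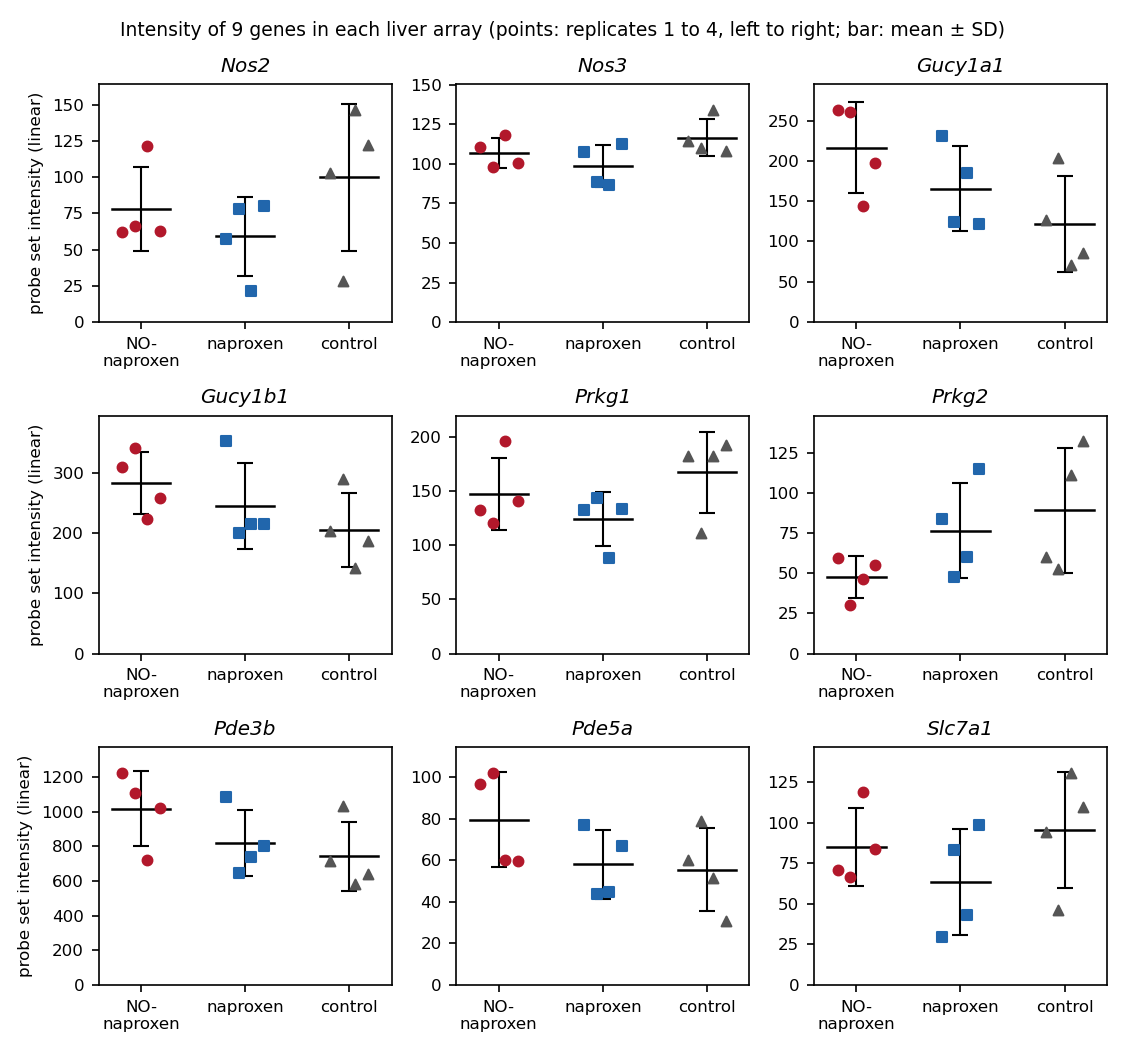
Probe set intensity (linear scale, vertical axis) of the 9 genes in each of the 12 livers, with 1 point per array and the mean ± SD of 4 arrays in black for the NO-naproxen, naproxen and control groups. The groups overlap in every panel. For Gucy1a1 the means are 216.4, 165.6 and 121.6 in that order, and for Prkg2 they are 47.7, 76.4 and 89.

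The first step of the pathway is the supply of arginine and its oxidation. Nos2 (Entrez Gene 24599), the inducible synthase that cytokines and bacterial products switch on in many cell types, measured 62.3, 65.9, 121.6 and 62.7 in NO-naproxen livers and 57.3, 78, 21.3 and 80.2 in naproxen livers. Control livers gave 102.5, 28.5, 146.3 and 121.9. Naproxen replicate 3, at 21.3, was the lowest of all 12 arrays and far below its group. One control liver lay far below the other controls, and 1 NO-naproxen liver stood well above its group. The log2 fold change was 0.37 ± 0.37 for NO-naproxen against naproxen, with a 95% interval of -0.42 to 1.16 (limma, unadjusted p = 0.332), which includes no difference and a rise of more than 1.5-fold. It was -0.19 ± 0.37 for NO-naproxen against control and -0.56 ± 0.37 for naproxen against control (limma, unadjusted p = 0.613 and 0.149). The mean of Nos2 over all arrays, 6.45 on the log2 scale, lay just above 6.44, the 95th percentile of probe sets for olfactory and vomeronasal receptors, which liver is not known to use. Only 6 of the 12 arrays were above that bound.

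Nos3 (Entrez Gene 24600), the endothelial synthase that calcium and shear stress activate, was the steadiest of the 9 genes. It measured 110.6, 97.8, 118.3 and 100.5 in NO-naproxen livers, 107.7, 88.8, 86.5 and 112.5 in naproxen livers and 114.4, 109.9, 134.2 and 108.4 in control livers. All 12 arrays were above the olfactory receptor bound. The SD within groups was 0.14 log2 units, against 0.65 for Nos2, so its intervals were narrower. For NO-naproxen against naproxen the log2 fold change was 0.10 ± 0.15 with a 95% interval of -0.22 to 0.42 (limma, unadjusted p = 0.522). Against control it was -0.11 ± 0.15 with NO-naproxen and -0.21 ± 0.15 with naproxen (limma, unadjusted p = 0.479 and 0.187). The 3 intervals for Nos3 ended inside a 1.5-fold change either way, at -0.54 and 0.42 at their farthest.

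Slc7a1 (Entrez Gene 25648), the cationic amino acid transporter that brings arginine into cells, measured 70.8, 66.4, 119 and 83.8 in NO-naproxen livers. It measured 29.7, 83, 42.9 and 98.8 in naproxen livers and 94.4, 46.5, 130.7 and 109.6 in control livers. The lowest were 2 naproxen livers and 1 control liver, below every NO-naproxen liver. The difference between NO-naproxen and naproxen, a log2 fold change of 0.41 ± 0.30 with a 95% interval of -0.23 to 1.06, was the largest positive one among the 9 genes and did not pass (limma, unadjusted p = 0.192). Naproxen against control gave -0.51 ± 0.30 (limma, unadjusted p = 0.11), and NO-naproxen against control -0.10 ± 0.30 (limma, unadjusted p = 0.744). Without control replicate 2, the low control array, naproxen against control reached -0.77 for Slc7a1 and -0.97 for Nos2, both past the study's criterion. With control replicates 3 and 4 left out instead it was -0.16 for Slc7a1 and -0.04 for Nos2, and with the spread of the arrays as a covariate 0.04 and 0.01. In the covariate fit NO-naproxen against control was 0.50 for Slc7a1 (limma, unadjusted p = 0.0268, adjusted p = 0.998) and 0.44 for Nos2 (limma, unadjusted p = 0.186), both of opposite sign to the values without it.

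The receptor of nitric oxide is formed by Gucy1a1 (Entrez Gene 497757), the alpha subunit, and Gucy1b1 (Entrez Gene 25202), the beta subunit that carries the haem. Their levels went up and down together over the 12 arrays, as given below, so the 250 bases before their RefSeq starts are shown, 5′ to 3′ on the coding strand. In build GRCr8 these are chr2:169779624-169779873 for Gucy1a1 and chr2:169696988-169697237 for Gucy1b1, both on the minus strand. The arrays were annotated on rn4, so no coordinate of a probe set is given. Capitals mark a CCAAT box (CCAAT, here read as ATTGG on the opposite strand) and a GC box (GGGCGG, or CCGCCC on the opposite strand). In Gucy1a1 the 2 motifs overlap in 1 run of capitals.
Gucy1a1: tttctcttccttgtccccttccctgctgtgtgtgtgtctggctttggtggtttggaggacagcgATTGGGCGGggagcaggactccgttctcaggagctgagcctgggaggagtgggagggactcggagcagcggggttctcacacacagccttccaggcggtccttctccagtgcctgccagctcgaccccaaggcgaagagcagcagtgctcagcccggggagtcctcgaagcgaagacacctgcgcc
Gucy1b1: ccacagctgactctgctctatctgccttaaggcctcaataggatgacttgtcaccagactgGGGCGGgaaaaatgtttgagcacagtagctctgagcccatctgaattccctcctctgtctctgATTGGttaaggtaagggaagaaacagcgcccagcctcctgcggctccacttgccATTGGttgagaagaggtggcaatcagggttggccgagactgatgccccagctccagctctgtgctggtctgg

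Gucy1a1 held 1 CCAAT box, at bases 186 to 182 before the start, and 1 GC box at bases 183 to 178. Gucy1b1 held 2 CCAAT boxes, at bases 126 to 122 and 72 to 68, and 1 GC box at bases 189 to 184. A TATA box (TATAAA, either strand) was found in neither window. These motifs are common: of 33469 rat promoter windows of the same length in the RefSeq table, 34% held a CCAAT box, 30.5% a GC box, 10.1% both and 12.9% a TATA box. The windows were 63.2% G or C for Gucy1a1 and 54.8% for Gucy1b1, against a median of 51.2% over all windows. Among the other genes in the table, Pde5a held 2 GC boxes, Slc7a1 3 GC boxes and 1 CCAAT box, Nos3 1 GC box and Prkg1 neither motif. The 2 cyclase genes lie next to each other on chromosome 2, with 1 annotated small nuclear RNA gene between them.

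Gucy1a1 measured 263.1, 260.9, 144.5 and 197.2 in NO-naproxen livers, 231.2, 124.2, 185 and 122 in naproxen livers and 126, 204.1, 70.8 and 85.3 in control livers. The highest values were those of 2 NO-naproxen livers. Control replicate 2 lay among the treated livers, and control replicate 1, at 126, was just above the 124.2 and 122 of 2 naproxen livers. For NO-naproxen against naproxen the log2 fold change was 0.37 ± 0.29 with a 95% interval of -0.24 to 0.97 (limma, unadjusted p = 0.219), which spans no difference and a rise of more than 1.5-fold. Relative to control livers it was 0.82 ± 0.29, a 1.76-fold higher level with a 95% interval of 0.21 to 1.42 (limma, unadjusted p = 0.0113, adjusted p = 0.468). This passed the study's criterion, as did 3.8% of all probe sets in that comparison. The exact permutation test of the same difference, whose smallest possible p with 4 against 4 is 0.0286, gave p = 0.0857. With the spread of each array as a covariate the value was 0.24 (limma, unadjusted p = 0.207), and with control replicates 3 and 4 left out it was 0.36 (limma, unadjusted p = 0.256). Naproxen against control gave 0.45 ± 0.29 (limma, unadjusted p = 0.133).

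Gucy1b1 measured 310.4, 341.5, 224.6 and 258.7 in NO-naproxen livers, 353, 200.1, 216.3 and 215.4 in naproxen livers and 203.2, 290.3, 142.1 and 186.7 in control livers. Naproxen replicate 1 was the highest of all 12 arrays, and the other 3 naproxen livers were below every NO-naproxen liver. The log2 fold change was 0.21 ± 0.23 for NO-naproxen against naproxen, with a 95% interval of -0.27 to 0.69 (limma, unadjusted p = 0.362). It was 0.46 ± 0.23 for NO-naproxen against control (limma, unadjusted p = 0.0585) and 0.25 ± 0.23 for naproxen against control (limma, unadjusted p = 0.287). With the spread of the arrays as a covariate these were 0.07 and -0.11 (limma, unadjusted p = 0.689 and 0.548), and with control replicates 3 and 4 left out 0.19 and -0.02. The alpha subunit gene differed from the beta subunit gene in the size of its change by 0.15 log2 units for NO-naproxen against naproxen, by 0.36 for NO-naproxen against control and by 0.20 for naproxen against control. None of these passed the exact permutation test (p = 0.314, 0.0571 and 0.257, adjusted over the 3 tests by Benjamini-Hochberg 0.314, 0.171 and 0.314).

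Over the 12 arrays Gucy1a1 and Gucy1b1 had Pearson's r = 0.94 and Spearman's rho = 0.944. The permutation p for r was 1e-05, the smallest that 100000 resamples can give, and 0.00045 after Benjamini-Hochberg adjustment over 45 relations. It was 2e-05 for rho, also 0.00045 after that adjustment. With the 2 arrays of most extreme Gucy1a1 level dropped r was 0.908, and with each group's mean taken out it was 0.918. With the spread of the arrays taken out of both genes r was 0.707, and after quantile normalization it was 0.937. Of all pairs of probe sets on these arrays 6.43% had r over 0.7.

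**Figure D2:**
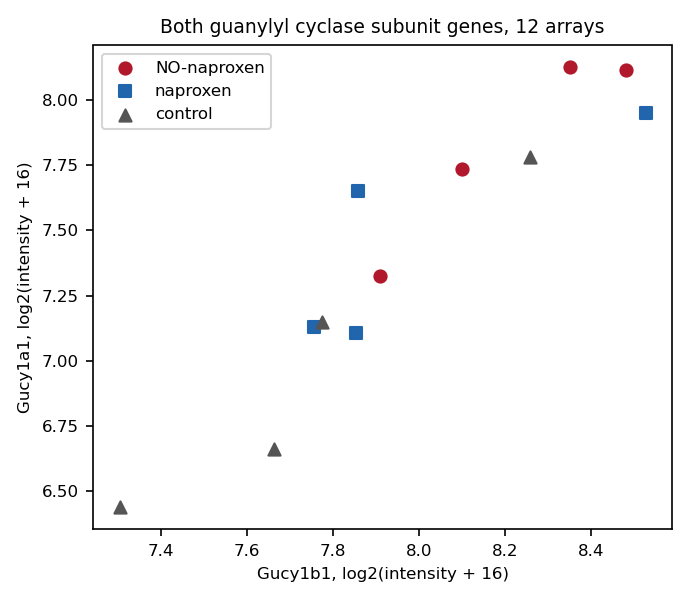
Level of Gucy1a1 (vertical axis) against Gucy1b1 (horizontal axis), both as log2(intensity + 16), with 1 point per array and a colour and shape per diet. The 12 arrays run from control replicate 3 at the lower left to NO-naproxen replicates 1 and 2 and naproxen replicate 1 at the upper right, with r = 0.94.

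Protein kinases carry the cyclic GMP signal onward. Prkg1 (Entrez Gene 54286), the soluble kinase of smooth muscle and platelets, measured 132.9, 120.5, 195.9 and 141 in NO-naproxen livers, 132.5, 143.4, 87.9 and 133.1 in naproxen livers and 182.3, 111.3, 182.9 and 192.8 in control livers. Above all naproxen livers stood 3 of the 4 control livers, and 1 NO-naproxen liver was higher still. The log2 fold change was 0.22 ± 0.21 for NO-naproxen against naproxen, with a 95% interval of -0.22 to 0.66 (limma, unadjusted p = 0.305). It was -0.16 ± 0.21 for NO-naproxen against control and -0.38 ± 0.21 for naproxen against control (limma, unadjusted p = 0.459 and 0.0878). With the spread of the arrays as a covariate these were 0.15 and -0.09, and with control replicates 3 and 4 left out 0.02 and -0.20.

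Prkg2 (Entrez Gene 25523), the membrane-bound kinase known from intestine and bone, measured 59.4, 30.1, 46.2 and 55.1 in NO-naproxen livers, 83.9, 47.4, 59.8 and 114.6 in naproxen livers and 60, 52.8, 111.3 and 131.9 in control livers. All NO-naproxen livers lay below 60, and 2 naproxen and 2 control livers stood far above that. The log2 fold change for NO-naproxen against naproxen was -0.51 ± 0.27 with a 95% interval of -1.09 to 0.08 (limma, unadjusted p = 0.0838), the largest in size and the only negative one of the 9. Without naproxen replicate 2 it was -0.67 and passed the criterion. For NO-naproxen against control it was -0.67 ± 0.27 with a 95% interval of -1.25 to -0.09 (limma, unadjusted p = 0.027, adjusted p = 0.468), which passed the criterion, and the exact permutation test gave p = 0.114. That call ended with the spread of the arrays as a covariate, at -0.39, with control replicates 3 and 4 both left out, at -0.21, and with a constant of 64 added, at -0.43. It also ended without NO-naproxen replicate 2, at -0.52, without control replicate 3, at -0.55, and without control replicate 4, at -0.48. Naproxen against control gave -0.16 ± 0.27 (limma, unadjusted p = 0.562). The mean of Prkg2, 6.36 on the log2 scale, lay within the olfactory receptor range, with 4 of 12 arrays above the bound. Its mean in NO-naproxen livers, 5.97, was under that bound, and its means in naproxen and control livers, 6.48 and 6.64, were just above it.

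The phosphodiesterases follow. Pde3b (Entrez Gene 29516), which degrades cyclic AMP, is inhibited by cyclic GMP and serves insulin signalling in hepatocytes and fat cells, stood at the 92.1 percentile of all probe sets. It measured 1224.2, 1107.6, 720.5 and 1021.2 in NO-naproxen livers, 1087.1, 648.5, 736.4 and 803.7 in naproxen livers and 713.7, 1031.3, 584.2 and 640.9 in control livers. The values of 3 NO-naproxen, 1 naproxen and 1 control liver lay clearly above the other 7. NO-naproxen against naproxen gave a log2 fold change of 0.31 ± 0.22 with a 95% interval of -0.16 to 0.78 (limma, unadjusted p = 0.183). Relative to control it was 0.46 ± 0.22 (limma, unadjusted p = 0.057), and for naproxen against control 0.15 ± 0.22 (limma, unadjusted p = 0.519). With the spread of the arrays as a covariate Pde3b was at 0.08 and -0.20 (limma, unadjusted p = 0.655 and 0.276), and with control replicates 3 and 4 left out at 0.22 and -0.09.

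Pde5a (Entrez Gene 171115), the cyclic GMP-specific phosphodiesterase of vascular smooth muscle that sildenafil inhibits, measured 96.6, 102.1, 60.2 and 59.5 in NO-naproxen livers, 77.2, 43.6, 44.6 and 66.9 in naproxen livers and 60.4, 79.1, 51.4 and 30.9 in control livers. The highest of all 12 were 2 NO-naproxen livers. For NO-naproxen against naproxen it had a log2 fold change of 0.36 ± 0.24 with a 95% interval of -0.14 to 0.87 (limma, unadjusted p = 0.147). Against control it was 0.43 ± 0.24 with NO-naproxen and 0.07 ± 0.24 with naproxen (limma, unadjusted p = 0.0884 and 0.776). The covariate fit gave 0.07 and -0.27 for Pde5a, and the fit without control replicates 3 and 4 gave 0.13 and -0.23. Its mean of 6.28 lay within the olfactory receptor range, and 4 of 12 arrays were above the bound.

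**Figure D3:**
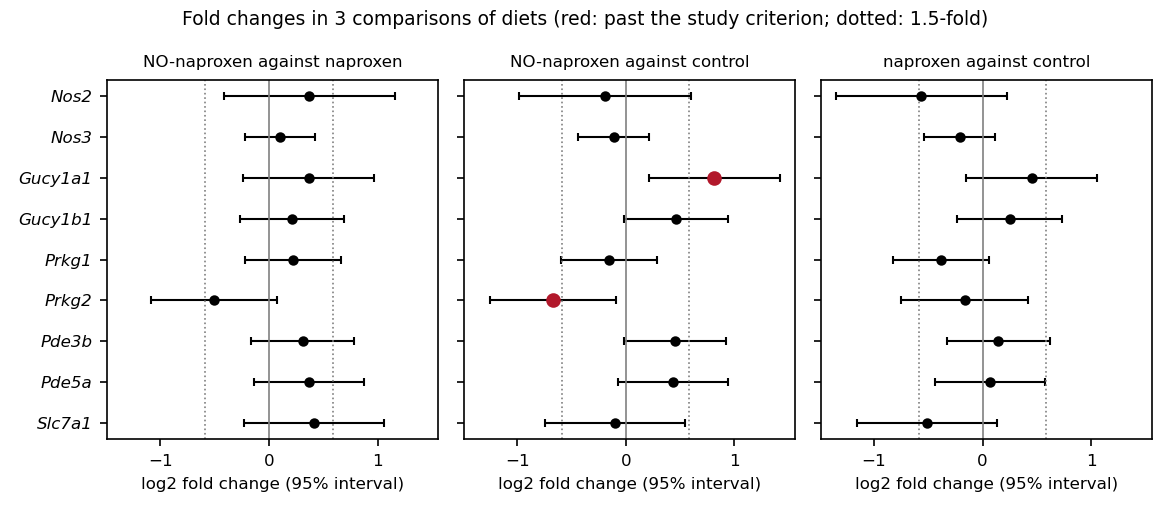
Log2 fold change with its 95% interval (horizontal axis) of the 9 genes (vertical axis) in the 3 comparisons of diets. All intervals in the NO-naproxen against naproxen panel include 0. In the NO-naproxen against control panel the 2 red points, Gucy1a1 at 0.82 and Prkg2 at -0.67, passed the study's criterion.

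Set against all probe sets, the comparison of NO-naproxen with naproxen called 0 of the 9 genes by the study's criterion, where it called 0.572% of all probe sets, and 0 of 9 at an unadjusted p under 0.05, where 1.92% of all had one. After Benjamini-Hochberg adjustment limma called 0% of all probe sets in each of the 3 comparisons. Groups did not overlap for 1.17% of all probe sets and for 0 of the 9 genes. Over all probe sets 64.1% had a log2 fold change above 0 in this comparison, against 8 of the 9 genes. The sign of each of the 9 log2 fold changes was the same in the 25 alternatives run for this comparison, Gucy1a1 between 0.25 and 0.58, Pde3b between 0.21 and 0.47, Pde5a between 0.23 and 0.48 and Prkg2 between -0.67 and -0.31. Slc7a1 lay between 0.18 and 0.62 and Nos2 between 0.07 and 0.52. A part of the 25 could not change these values, as they dropped control arrays only, kept only the groups compared or altered only the variance estimate. The replicate block and the fold of 2 could not change them either, so the same sign there was fixed in advance. With the spread of the arrays as a covariate the values were close to those without it, for example 0.46 for Slc7a1 (limma, unadjusted p = 0.0174, adjusted p = 0.912) and 0.32 for Gucy1a1 (limma, unadjusted p = 0.0592, adjusted p = 0.912).

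For NO-naproxen against control, 2 of the 9 genes passed the criterion, 1 in each direction, where 3.8% of all probe sets did. At an unadjusted p under 0.05 alone it was the same 2 genes, where 10.4% of all had one, and groups did not overlap for 0 of the 9, where 3.35% of all were apart. The naproxen against control comparison had 0 of 9 past the criterion and 0 at an unadjusted p under 0.05, where 5.85% and 12.7% of all probe sets were, and 0 of 9 with groups apart, where 4.5% of all were. Both comparisons use the same 4 control arrays. Leaving out control replicate 2 brought 5 of the 9 genes past the criterion for NO-naproxen against control, with Gucy1b1 at 0.63, Pde3b at 0.62 and Pde5a at 0.59 added to the 2 above, whereas these 3 were at 0.07, 0.08 and 0.07 with the spread of the arrays as a covariate. For naproxen against control it brought 3, Gucy1a1 at 0.71 besides Nos2 and Slc7a1. Leaving out NO-naproxen replicate 3 added Pde3b at 0.61 for NO-naproxen against control, and leaving out naproxen replicate 4 gave Slc7a1 at -0.72 for naproxen against control.

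The levels of most of the 9 genes followed the spread of signals on the array. Over 12 arrays the interquartile range and Gucy1a1 had r = 0.917 and rho = 0.888 (permutation p = 4e-05 and 0.00024, adjusted p = 0.00045 and 0.00157 over the 45 relations), and r was 0.886 when the 2 arrays of most extreme spread were dropped. The value for Gucy1b1 was r = 0.877 and rho = 0.86 (permutation p = 0.00021 and 0.00066, adjusted 0.00157 and 0.00297), and for Pde3b r = 0.834 and rho = 0.874 (permutation p = 0.00134 and 0.00038, adjusted 0.0067 and 0.0019). Without those 2 arrays they were 0.856 and 0.799. Slc7a1 ran the other way, with r = -0.804 and rho = -0.888 (permutation p = 0.00155 and 0.00026, adjusted 0.00697 and 0.00157), as did Prkg1 with r = -0.779 and rho = -0.853 (permutation p = 0.00306 and 0.00078, adjusted 0.0106 and 0.00319). Nos2 had r = -0.707 and rho = -0.832 (permutation p = 0.00945 and 0.0014, adjusted 0.0236 and 0.00485). Without the 2 arrays these 3 were -0.906, -0.76 and -0.784.

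For Pde5a r was 0.725 and rho 0.664 (permutation p = 0.00761 and 0.0214, adjusted 0.0216 and 0.0402). Its r was 0.47 without the 2 arrays of most extreme spread, a step that also narrows the range of the spread. With each group's mean taken out it was 0.747. Prkg2, with r = -0.563, and Nos3, with r = -0.507, did not pass after adjustment (permutation p = 0.0583 and 0.0913, adjusted 0.105 and 0.132), with rho = -0.441 and -0.58 (permutation p = 0.157 and 0.0509, adjusted 0.214 and 0.0811). Such relations were common on these arrays: 2.37% of all probe sets had an r with the spread as far from 0 as Gucy1a1, 18.2% as far as Slc7a1 and 55.8% as far as Nos3. In all, 14.1% of probe sets had r over 0.7 with the spread and 19.2% had r under -0.7. Within the groups, with each group's mean taken out, r was 0.917 for Gucy1a1, -0.888 for Slc7a1 and -0.727 for Nos2. The mean spread was wider by 0.26 in NO-naproxen than in control arrays and by 0.24 in naproxen than in control arrays, with overlapping ranges, and neither difference passed the 2-sided exact permutation test (p = 0.143 and 0.114, both 0.214 after Benjamini-Hochberg adjustment over 3 tests). NO-naproxen and naproxen arrays differed in it by 0.02 (exact permutation p = 0.914, also 0.914 after adjustment). Its part in the differences from control was not tested beyond the values with it as a covariate. In that fit the sign of the log2 fold change turned for Nos2, Prkg1 and Slc7a1 for NO-naproxen against control, and for 7 of the 9 genes, all but Nos3 and Prkg1, for naproxen against control.

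**Figure D4:**
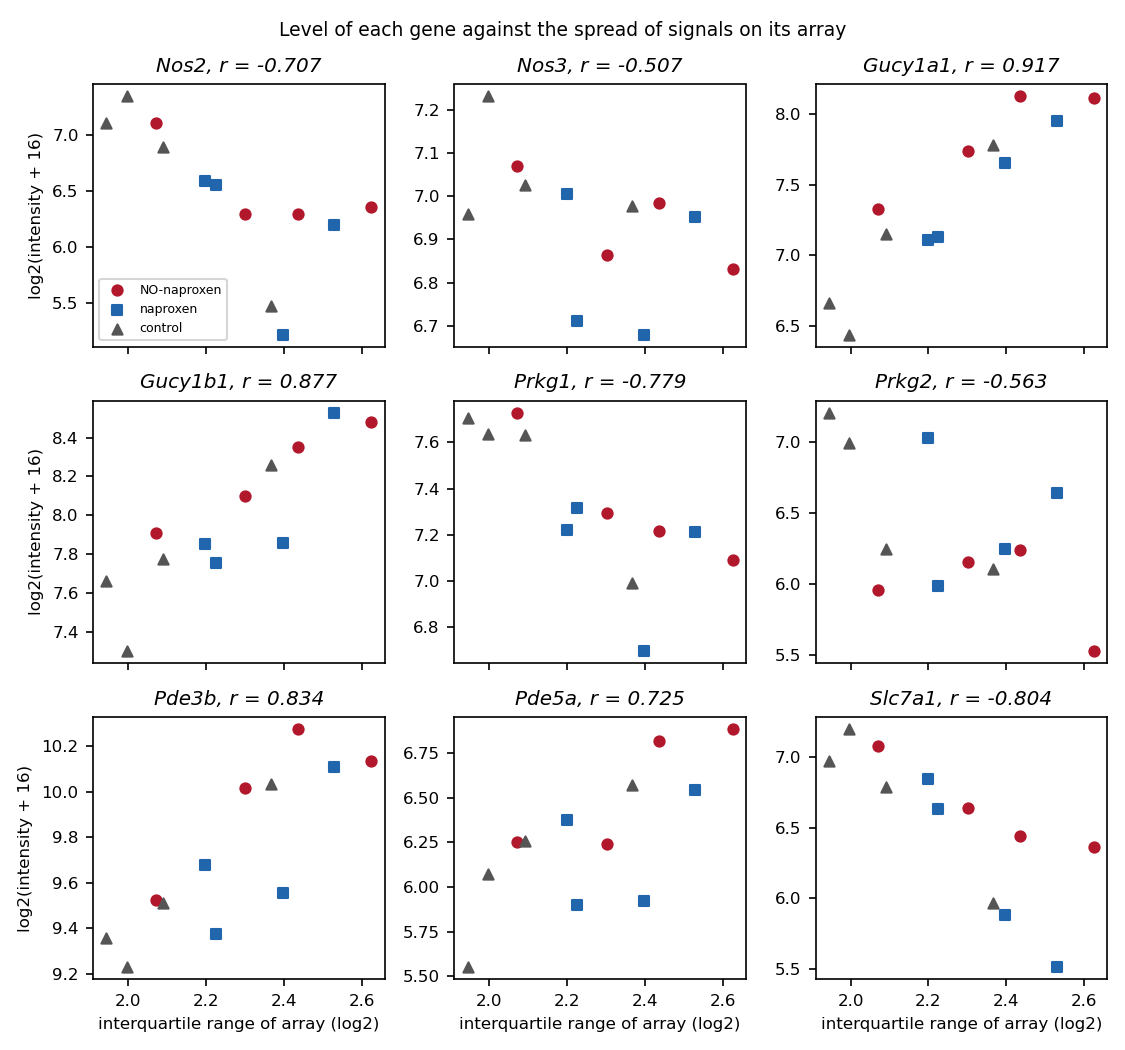
Level of each gene as log2(intensity + 16) (vertical axis) against the interquartile range of the log2 signals on its array (horizontal axis), with 1 point per array and a colour and shape per diet. Gucy1a1, Gucy1b1 and Pde3b are high and Nos2, Prkg1 and Slc7a1 low on arrays of wide spread.

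Of the 36 pairs of the 9 genes, 17 had a positive r over the arrays, 9 had r over 0.7 and 2 had r under -0.7. The pairs high together were of 2 kinds, those among Gucy1a1, Gucy1b1, Pde3b and Pde5a, and those among Nos2, Prkg1 and Slc7a1. Nos2 and Prkg1 had r = 0.942 and rho = 0.902 (permutation p = 3e-05 and 0.0001, adjusted 0.00045 and 0.0009). Their r was 0.905 without the 2 arrays of most extreme Nos2 level and 0.883 with the spread taken out. Gucy1b1 and Pde3b had r = 0.939 and rho = 0.944 (permutation p = 2e-05 and 1e-05, both 0.00045 adjusted). For this pair r was 0.937 without the 2 arrays of most extreme Gucy1b1 level and 0.785 with the spread taken out. The pairs below -0.7 were Gucy1a1 with Slc7a1, at -0.726, and Gucy1b1 with Slc7a1, at -0.715, and with the spread taken out they were 0.05 and -0.04. After that step 4 of the 36 pairs had r over 0.7 and 0 had r under -0.7. Over the pairs of all probe sets 6.43% were over 0.7 and 2.78% under -0.7 before that step, and 2.89% and 0.941% after it.

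By mean absolute difference of centred log2 levels over the 12 arrays, among genes above the olfactory receptor bound whose range was at least 80% of its own, the genes most like Gucy1a1 were Rsf1 at 0.10, Hycc2 at 0.11 and Klhl28 at 0.12, where the median of 1601 candidates was 0.54. For Nos2 they were Kif9 at 0.15, Cd300e at 0.17 and Tspan32 at 0.17, where the median of 395 candidates was 0.45. For Slc7a1 they were Ccdc15 at 0.10, Chrna7 at 0.12 and Col19a1 at 0.13, where the median of 1609 candidates was 0.54.

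Around the 9 genes, 93 others of the pathway were listed in 8 lists and 74 were measured, 62 of them with a mean above the olfactory receptor bound. Their median log2 fold change was 0.02 for NO-naproxen against naproxen, 0.01 for NO-naproxen against control and -0.004 for naproxen against control, where all probe sets had 0.06, 0.0004 and -0.03. The criterion called 0 of the 74 for NO-naproxen against naproxen. NO-naproxen against control had 2 higher and 1 lower, and naproxen against control 0 higher and 3 lower, where 3.8% and 5.85% of all probe sets passed. A count of 3 of 74 is near the first share and below the second, so the genes called below do not set the lists apart from other probe sets. Each of these calls ended once the spread of the arrays entered as a covariate, and also once control replicates 3 and 4 were dropped.

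Of 5 measured regulators of the synthases, 1 passed the criterion. Nostrin, which in endothelial cells draws Nos3 away from the membrane, measured 396.9, 444.9, 336.9 and 262.2 in NO-naproxen livers and 221.3, 314.6, 170 and 200.8 in control livers, overlapping by 1 control liver, and its log2 fold change was 0.64 ± 0.23 (limma, unadjusted p = 0.0136, adjusted p = 0.468). In naproxen livers it measured 409.6, 355.1, 222.2 and 391.9, and NO-naproxen against naproxen gave 0.07 ± 0.23 (limma, unadjusted p = 0.762). Naproxen against control gave 0.57 ± 0.23 for Nostrin, under 1.5-fold (limma, unadjusted p = 0.0254, adjusted p = 0.381). With the spread as a covariate NO-naproxen against control gave 0.41 (limma, unadjusted p = 0.107) and naproxen against control 0.36 (limma, unadjusted p = 0.147). Of 10 listed endothelial markers 5 were measured (Clec4g, Tek, Oit3, Flt4 and Vwf). Their 5 log2 fold changes were above 0 both for NO-naproxen against control, with a median of 0.29, and for naproxen against control, with a median of 0.40, where 50.1% and 45.9% of all probe sets were above 0. None passed the criterion, and 0 and 3 of the 5 had an unadjusted p under 0.05, where 10.4% and 12.7% of all probe sets had one. For NO-naproxen against naproxen 2 of the 5 were above 0, with a median of -0.10, where 64.1% of all probe sets were above 0. Clec4g was lower there with its groups apart, at -0.48 ± 0.22 and under 1.5-fold (limma, unadjusted p = 0.0455). Of all probe sets 1.92% had an unadjusted p under 0.05 in that comparison and 1.17% were apart. The summed intensity of the 5 markers was 1543 to 2133 in NO-naproxen livers, 1771 to 2120 in naproxen livers and 1219 to 1755 in control livers. In whole liver, a change in the number of cells of a type and a change in RNA per cell cannot be told apart. The part of endothelial cells in these values was not tested.

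Genes that supply arginine or remove the synthase inhibitor asymmetric dimethylarginine, 9 measured, and those that make the cofactor tetrahydrobiopterin, 4 measured, had 0 calls by the criterion in any comparison. Ddah2, which degrades that inhibitor, had a log2 fold change of 0.04 ± 0.23 for NO-naproxen against naproxen, and Agxt2, an enzyme of another route of its removal, -0.06 ± 0.17. Gch1, the first enzyme of tetrahydrobiopterin synthesis, gave 0.03 ± 0.20 and Pts, the next enzyme, 0.05 ± 0.20. The median of the arginine list was 0.04 and that of the cofactor list 0.01, both near the 0.06 of all probe sets. For naproxen against control Agxt2 was at 0.38 ± 0.17 (limma, unadjusted p = 0.04, adjusted p = 0.388), under 1.5-fold, and Ddah2 at -0.41 ± 0.23 (limma, unadjusted p = 0.101). Gch1 and Pts were there at 0.27 ± 0.20 and 0.28 ± 0.20 (limma, unadjusted p = 0.208 and 0.17). An unadjusted p under 0.05 was found for 12.7% of all probe sets in that comparison.

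Among 12 other guanylyl cyclases and their peptide ligands 9 had a log2 fold change above 0 for NO-naproxen against naproxen, near the 64.1% of all probe sets above 0, and 0 passed. Guca2a, which encodes the gut peptide guanylin, was lower in naproxen livers than in control livers by the criterion, at 41, 42.8, 55.9 and 86.9 with naproxen against 113.6, 43.8, 124.8 and 162.6 in controls, a log2 fold change of -0.74 ± 0.30 (limma, unadjusted p = 0.024, adjusted p = 0.381). It was at 78.1, 64.4, 121.9 and 67.8 in NO-naproxen livers, and NO-naproxen against naproxen gave 0.45 ± 0.30 (limma, unadjusted p = 0.147). With the spread as a covariate naproxen against control gave -0.26 (limma, unadjusted p = 0.28).

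Of the other phosphodiesterases of cyclic GMP 12 were measured. Pde6c, known from cone photoreceptors, measured 103.2, 141.4, 72.8 and 171 in naproxen livers and 162.6, 116.9, 241.3 and 242.7 in control livers. It was lower with naproxen by the criterion, with a log2 fold change of -0.59 ± 0.27 (limma, unadjusted p = 0.0453, adjusted p = 0.391), and with the spread as a covariate it was -0.14. Pde1c, a calmodulin-dependent enzyme, was the only one of the 74 genes whose groups did not overlap between NO-naproxen and naproxen, where 1.17% of all probe sets did not, a share that 1 of 74 does not stand out from. It measured 189.1, 235.3, 243.2 and 231.9 in NO-naproxen livers, below the 256.6, 328.8, 269.7 and 280.2 of naproxen livers, with a log2 fold change of -0.32 ± 0.17 that did not pass (limma, unadjusted p = 0.0792, adjusted p = 1). Naproxen and control livers did not overlap for 2 other enzymes of this list, Pde1b and Pde10a, where 4.5% of all probe sets were apart. Pde1b measured 84 to 110.1 in naproxen livers and 112.6 to 173 in control livers, a log2 fold change of -0.37 ± 0.18, and Pde10a 100 to 122 and 125.6 to 214.1 in those groups, -0.41 ± 0.21, and neither passed (limma, unadjusted p = 0.0631 and 0.0707).

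Kinase substrates and cyclic nucleotide channels, 13 measured, had 1 lower call in each comparison with control. Both were Cnga4, a channel subunit of olfactory neurons, at -0.64 ± 0.25 with NO-naproxen and -0.71 ± 0.25 with naproxen (limma, unadjusted p = 0.0216 and 0.013, adjusted p = 0.468 and 0.381). Its intensities ran between 21.7 and 69.8 in NO-naproxen livers, 22.9 and 54.3 in naproxen livers and 54.4 and 101.7 in control livers, for the most part under the 70.6 of the olfactory receptor bound. With the spread as a covariate the values were -0.20 and -0.30. The 10 genes of nitrate, nitrosothiol and nitric oxide handling, among them the globins Cygb at -0.12 ± 0.18 and Mb at 0.20 ± 0.16 for NO-naproxen against naproxen, had 0 calls.

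Of 9 measured genes that induce Nos2, the receptor of bacterial endotoxin Tlr4 passed in 1 comparison. It measured 173.5, 178.8, 90.8 and 149.3 in NO-naproxen livers, 200, 105.3, 126.7 and 118.1 in naproxen livers and 101.3, 95.7, 74.7 and 68.3 in control livers. The log2 fold change was 0.67 ± 0.23 for NO-naproxen against control (limma, unadjusted p = 0.00881, adjusted p = 0.468) and 0.09 ± 0.23 for NO-naproxen against naproxen (limma, unadjusted p = 0.683). For naproxen against control it was 0.58 ± 0.23, just under 1.5-fold, with all naproxen livers above all control livers (limma, unadjusted p = 0.0207, adjusted p = 0.381). With the spread as a covariate NO-naproxen against control gave 0.29 (limma, unadjusted p = 0.128). For naproxen against control 3 of the 9 inducers had an unadjusted p under 0.05, all higher, namely Tlr4, the cytokine gene Il1b at 0.55 ± 0.25 and the interferon gene Ifng at 0.39 ± 0.15 (limma, adjusted p = 0.381, 0.39 and 0.381), where 12.7% of all probe sets had one. The groups were apart for Tlr4 and Ifng, where 4.5% of all probe sets were apart. Ifng measured 42.2 to 52.9 in naproxen livers and 27.2 to 39.8 in control livers, under the 70.6 of the olfactory receptor bound. Kupffer cell and macrophage markers, 7 of 8 measured, had 7 of 7 log2 fold changes above 0 for naproxen against control. For NO-naproxen against control it was 6 of 7, with 0 calls in either comparison, where 45.9% and 50.1% of all probe sets were above 0. These markers summed to between 4373 and 6964 in NO-naproxen livers, 4138 and 5991 in naproxen livers and 3840 and 5472 in control livers. Their part in the difference was not tested.

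**Figure D5:**
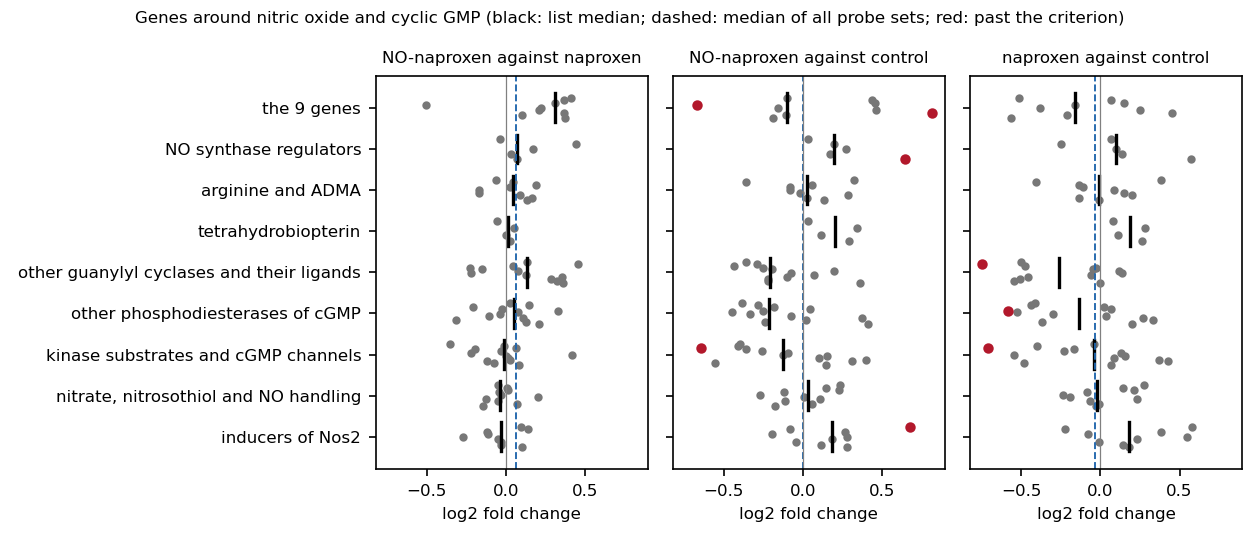
Log2 fold changes (horizontal axis) of the 9 genes and of the measured genes of 8 lists around them (vertical axis) in the 3 comparisons, with 1 point per gene, the list median as a black bar, the median of all probe sets as a dashed line and genes past the study's criterion in red. For NO-naproxen against naproxen no point is red, the 9 genes have a median of 0.31 and the lists have medians between -0.04 and 0.13.

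Markers of stellate and smooth muscle cells, which are known to respond to nitric oxide through cyclic GMP, were measured for 9 of 10 genes. They summed to between 2576 and 3541 in NO-naproxen livers, 2610 and 3646 in naproxen livers and 2030 and 3246 in control livers. In NO-naproxen against naproxen livers 3 of the 9 were above 0, where 64.1% of all probe sets were. The marker median was -0.13, while the median of the 9 pathway genes was 0.31. Against control the marker median was 0.18 with NO-naproxen and 0.18 with naproxen. Of the 9 markers 6 and 9 were above 0, where 50.1% and 45.9% of all probe sets were. The criterion called 0 and 1 of them, where 3.8% and 5.85% of all probe sets passed. The 1 called was Rgs5, at 0.71 ± 0.20 for naproxen against control (limma, unadjusted p = 0.00276, adjusted p = 0.381). The part of these markers in the levels of Gucy1a1, Gucy1b1 and Pde5a was not tested. Of the neutrophil markers 1 of 6 measured had a mean above the olfactory receptor bound, of the lymphocyte markers 2 of 5 and of the cholangiocyte markers 1 of 3, and markers of red blood cells were not analysed here. Skeletal muscle markers, 3 measured, were all above the bound and had 0 calls.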

How the data were processed

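The authors deposited 1 linear intensity per probe set and array, made with Affymetrix Expression Console 1.1.1 with build rn4 per the submitters' processing notes. Per the labels' protocols, total RNA was depleted of ribosomal RNA and biotin-labelled for whole-transcript arrays. No source used here says how the intensities were summarised and normalized. The arrays do not share 1 distribution, so that their spread can move with the genes.

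Groups and replicate numbers came from the sample titles and labels. As the deposited intensities reach below 1, 16 was added before log2, which understates the change of dim probe sets. All 19418 probe sets of 12 arrays entered limma 3.58.1 (lmFit and eBayes, 2-sided, in R 4.3.3). The model had a mean per diet and each pair of diets as a contrast, with Benjamini-Hochberg adjustment over all probe sets. The exact permutation test was run on single genes, with 4 against 4 arrays. The titles call the samples biological replicates. Relations over arrays had 100000 resamples (Python 3.11.15, numpy 2.4.6).

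The 9 genes and the lists around them were chosen with earlier results of these data known. Genes were named by rule: the 9 genes, and of each list those past the study's criterion or, where there was none, the 2 of smallest p over the 3 comparisons. Genes of like pattern were sought for Nos2, Gucy1a1 and Slc7a1, the 3 with the largest range over the arrays. Pde1b, Pde1c, Pde10a, Ifng, Il1b, Rgs5, the endothelial markers and the arrays singled out were named after their values were seen. The olfactory receptor bound comes from 970 probe sets with current or older receptor symbols. That choice was made after seeing the data, since the older symbols alone cover 111. Of all probe sets 13327 carried 1 symbol, 620 several and 5471 none. Replicate numbers pair nothing in the labels. Simulated data with known changes were used to check the limma script. Figures used matplotlib 3.10.9. Relations with the spread or the group means taken out were also added after seeing the data.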

Additional observations from a re-analysis of the deposited data

Results flagged for a closer look

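Of the 27 groups of 4 arrays (9 genes in 3 diets), 4 held an array far from the other 3, with a gap to the nearest array above the 95% critical value of Dixon's test. Chance alone gives about 1 in 20, and over all probe sets on these arrays 5.44% of 58254 such groups held one. The count of 4 was not tested against that share. The gap is given as a share of the group's range on the log2 scale. Nos2 in NO-naproxen replicate 3 stood at 121.6, against 65.9 for the nearest NO-naproxen array, a share of 0.921. Prkg1 in control replicate 2 stood at 111.3, against 182.3 for the nearest control, a share of 0.896. Gucy1b1 in naproxen replicate 1 stood at 353, against 216.3 for the nearest naproxen array, a share of 0.865. Prkg1 in naproxen replicate 3 stood at 87.9, against 132.5 for the nearest naproxen array, a share of 0.834. NO-naproxen replicate 3 had the narrowest spread of its group (2.07), and control replicate 2 and naproxen replicate 1 the widest of theirs (2.37 and 2.53). Naproxen replicate 3, at 2.40, was neither the widest nor the narrowest of its group. The part of the spread in these 4 values was not tested.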

How the results depend on the processing

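No value of a gene that had passed turned its sign, and 0 of the 9 genes passed the adjusted threshold under any alternative. Counts by the study's criterion moved. For NO-naproxen against naproxen, 111 probe sets passed (83 higher, 28 lower), 299 with a constant of 1 added, 8 with 64, 40 without the dimmest 30%, 304 with array weights and 3 at a fold of 2. For NO-naproxen against control, 738 passed (346 higher, 392 lower), 154 with 64 added, 2527 with array weights, 236 with the spread as a covariate, 215 without the 2 arrays of narrowest spread and 55 at a fold of 2. For naproxen against control, 1135 passed (170 higher, 965 lower), 191 with 64, 752 without the dimmest 30%, 332 with the covariate, 291 without those 2 arrays and 88 at a fold of 2. Leaving out each array in turn gave 98 to 331, 284 to 2570 and 574 to 2973 in these 3 comparisons, the highest without naproxen replicate 4 in the first and without control replicate 2 in the others, the lowest of the last 2 without NO-naproxen replicate 2 and without control replicate 4. At the adjusted threshold, 2 passed for NO-naproxen against control with array weights, and 0 to 4 and 0 to 3 with arrays left out, for NO-naproxen and naproxen against control. The higher and lower calls became 51 and 46 (quantile) or 55 and 46 (median centring) for NO-naproxen against naproxen, 632 and 266 (centring) for NO-naproxen against control, and 371 and 603 (quantile) or 463 and 483 (centring) for naproxen against control. There, centring moved the median of all probe sets from -0.03 to 0.08. No gene of the 9 changed sign under either.

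Of the 9 genes, NO-naproxen against control called 2, and 1 with 64 added, 4 with array weights (Gucy1b1 at 0.59 and Pde3b at 0.65 added), 0 with the covariate, 0 without the 2 narrow arrays, 0 at a fold of 2 and 1 to 5 with arrays left out. Naproxen against control called 0, and 1 with array weights (Nos2 at -0.62) and 0 to 3 with arrays left out. NO-naproxen against naproxen called 0, and 0 to 1 with arrays left out. Of the 74 listed genes, NO-naproxen against control called 3, and 0 with 64, 1 after quantile normalization, 5 with array weights, 0 with the covariate, 0 without the narrow arrays, 0 at a fold of 2 and 0 to 8 with arrays left out. Naproxen against control called 3, and 5 with a constant of 1, 0 with 64, 5 with centring, 6 with array weights, 0 with the covariate, 0 without the narrow arrays, 0 at a fold of 2 and 0 to 14 with arrays left out. NO-naproxen against naproxen called 0, and 0 to 2 with arrays left out. The cause of these changes was not tested, other than that a higher fold or fewer probe sets allow fewer calls. With the replicate number as a block, 120, 820 and 1193 probe sets passed in the 3 comparisons. The arrays share only a number: the deviations of same-numbered arrays correlated between -0.382 and 0.481, and in 4 of 24 checks an array correlated best with its own number. With 111 olfactory receptor symbols in place of 970 the bound was 6.77, with 5 of the 9 genes above it.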
